A study of Arabidopsis thaliana with 6 samples.

Results

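The light-signalling genes PHYA, PHYB, PIF4, PIF5, COP1, SPA1, SPA2, SPA3, SPA4 and HY5 were followed in a chromatin immunoprecipitation sequencing (ChIP-seq) experiment on the flowering activator SOC1, a transcription factor of the MADS family, in Arabidopsis thaliana. These 10 genes were picked by locus identifier, from 22909 genes that had at least 1 listed region. A region belonged to a gene if its centre lay over the gene, up to 3 kb upstream or up to 1 kb downstream of it, which gave 23 of the 24032 listed regions. The genes were named with the comparison of tagged and untagged libraries already known. The values of that comparison are therefore a description of these genes and no test of them.

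Libraries came from apices of plants with the genotype SOC1p:gSOC1-GFP;soc1-2 (gSOC1-GFP, line 7) and of plants with the genotype SOC1p:gSOC1;soc1-2 (untagged gSOC1, line 9), 3 libraries each. All plants thus lacked the endogenous SOC1 function through soc1-2 and carried a genomic SOC1 copy behind the SOC1 promoter, with or without GFP. Growth lasted 15 days in short days plus 3 in long days, with harvest at zeitgeber time 4, that is 4 hours after lights-on. An antibody against GFP was used on both genotypes, so untagged chromatin gave the background of the antibody. Each genotype was represented by 1 transgenic line, so the tag and the line cannot be told apart. Reads in the listed regions numbered 663108, 183668 and 262776 in gSOC1-GFP replicates 1, 2 and 3. The untagged libraries had 396326, 41073 and 61963 in the same order. Replicate 1 was thus the deepest in both groups. The labels do not say whether libraries of a genotype came from separate plantings, so the spread between them may be technical.

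Phytochromes are red and far-red light receptors that, once activated, enter the nucleus and act against the PIF proteins, basic helix-loop-helix transcription factors that promote elongation growth. In the dark, the ubiquitin ligase COP1 works together with the SPA proteins to direct light-promoting transcription factors such as HY5 to degradation, and activated photoreceptors inhibit this complex. The COP1-SPA complex also degrades the flowering activator CONSTANS, which links the pathway to the timing of flowering by day length.

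SPA2, PIF4 and PHYA carried regions that passed the authors' deposited false discovery rate (FDR) of 0.05 in all 3 replicates, termed called regions here. The authors' FDR set the tagged library of each replicate number against the untagged library of the same number. PHYA had 2 called regions, PIF4 and SPA2 had 1 each, and the other 7 genes had none. In the whole table the FDR was passed in all 3 replicates by 1.12% of regions and by a region of 1.75% of genes. All 4 called regions had their centre between 518 bp upstream and 373 bp downstream of the annotated gene start. Regions not called lay there too. Where the gene start could be derived, 10 regions were centred within 600 bp of it, the 4 called regions included.

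The region with the best rank in the pathway lay inside SPA2 (AT4G11110), which encodes a SPA partner of COP1. It spanned 6771781 to 6772175 on chromosome 4 in TAIR10 coordinates, and its centre lay 373 bp into the gene. The deposited annotation places that centre within the SPA2 transcript but in no exon. It held 533, 251 and 163 reads in gSOC1-GFP replicates 1, 2 and 3, against 2, 1 and 5 reads in the untagged libraries. Levels were scaled to 1000000 reads of effective library size (RPM), that is the reads in listed regions times a TMM normalization factor. They were 981, 1317 and 574 RPM in gSOC1-GFP, against 8.23, 17.9 and 61.8 RPM in untagged gSOC1. Every tagged library lay far above every untagged one. Replicate 3 had both the lowest tagged and the highest untagged level.

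The scaled count at SPA2 was 119-fold higher in gSOC1-GFP than in untagged gSOC1 in replicate 1, with a 95% exact counting interval of 32.8 to 986. In replicate 2 it was 73.5-fold higher (interval 13.1 to 2913) and in replicate 3 it was 9.29-fold higher (interval 3.9 to 29.0). The intervals are wide because the untagged libraries had so few reads, and they cover counting error only. The mean log2 enrichment was 5.11 ± 1.72 (SD, n = 3 pairs), position 8 among all listed regions by this measure and rank 15 in the authors' order. Of the 16 called regions whose centre fell in a transcript but in no exon, the SPA2 region had the best rank. No other gene was assigned to it.

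A second SPA2 region, 2936 bp upstream and over the 5' UTR of AT4G11100, held 8, 8 and 14 reads in gSOC1-GFP, against 7, 1 and 0 in untagged gSOC1. Another, 545 bp downstream and 31 bp upstream of AT4G11120, held 51, 8 and 26 reads in gSOC1-GFP, against 27, 2 and 7 in untagged gSOC1. Neither passed the FDR in any replicate, and at both the scaled counts of the groups overlapped. The called signal at this locus was thus listed in the region near the gene start and not in those at the flanks.

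**Figure D1:**
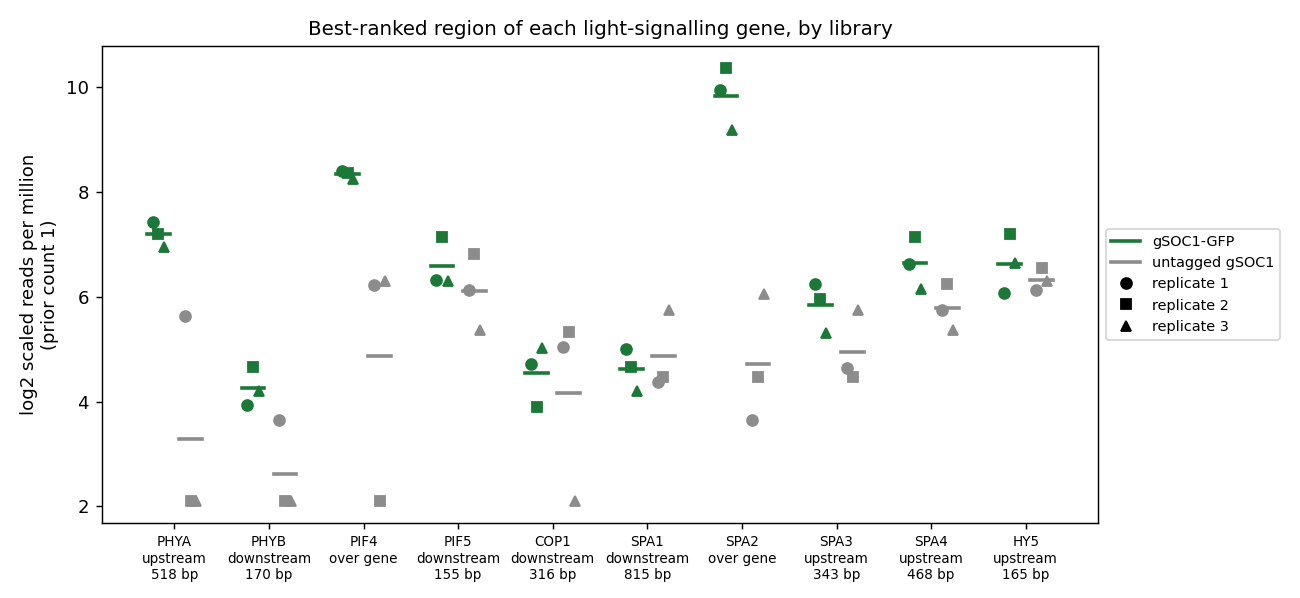
For the best-ranked region of each of the 10 genes, the vertical axis gives log2 RPM, the scaled read level, with a prior count of 1. Green symbols are the 3 gSOC1-GFP libraries, grey symbols the 3 untagged gSOC1 libraries, symbol shape marks the replicate and bars are means. The groups are apart at PHYA, PIF4 and SPA2, and also at the thinly covered PHYB region, where the untagged libraries hold 2, 0 and 0 reads.

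PIF4 (AT2G43010), the PIF protein best known for growth and flowering at warm temperature, carried its called region across the gene start. The region spanned 17886299 to 17886793 on chromosome 2, with its centre 119 bp into the gene in the 5' UTR. It was 495 bp long, against a median of 338 bp for called regions and 212 bp for all listed regions. Scaled levels were 331, 325 and 299 RPM in gSOC1-GFP against 70.0, 0 and 74.1 RPM in untagged gSOC1. The tagged libraries varied little among themselves, and the spread of the enrichment came from the untagged libraries. The scaled count was 4.73-fold higher in gSOC1-GFP in replicate 1 (95% exact counting interval 2.87 to 8.30) and 4.04-fold higher in replicate 3 (interval 1.78 to 11.3). In replicate 2, where no untagged read was found, the 95% exact counting interval began at 4.77-fold and had no upper limit.

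The mean log2 enrichment at PIF4 was 3.46 ± 2.43 (SD, n = 3 pairs). Without replicate 2 it was 2.06, so the untagged library with no reads decided much of this mean. By the authors' order the region had rank 77 and stood at place 6 of the 17 called regions over a 5' UTR. A region 393 bp downstream of PIF4 held 16, 12 and 8 reads in gSOC1-GFP, against 11, 4 and 2 in untagged gSOC1, with a log2 enrichment of -0.19 ± 0.36 (SD, n = 3 pairs).

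PIF5 (AT3G59060), the closest relative of PIF4, also had a listed region centred in its 5' UTR. It held 41, 13 and 19 reads in gSOC1-GFP, against 6, 3 and 5 in untagged gSOC1. The authors' FDR was 0.000244 in replicate 1, the deepest, but 0.375 and 0.353 in replicates 2 and 3. The log2 enrichments were 1.46, 0.32 and 0.11 in pairs 1, 2 and 3, against 2.18, 6.26 and 1.95 at the PIF4 region. PIF4 was thus higher than PIF5 in each pair, a difference given here as a description. A region 155 bp downstream of PIF5, which also lay 313 bp upstream of AT3G59052 and PAO3, had a log2 enrichment of 0.48 ± 0.39 (SD, n = 3 pairs).

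PHYA (AT1G09570) encodes the phytochrome that mediates responses to far-red light and is degraded in the light. Its called regions spanned 3100760 to 3100992 and 3100328 to 3100572 on chromosome 1, with centres 518 bp and 92 bp upstream of the gene and a gap of 187 bp between them. The farther region also lay 795 bp downstream of AT1G09575, while the nearer one was assigned to PHYA alone. The nearer region held 67, 28 and 32 reads in gSOC1-GFP, against 9, 0 and 2 in untagged gSOC1. Summed over both regions, the tagged libraries had 158, 55 and 66 reads, against 20, 0 and 2 reads in the untagged libraries. All tagged scaled levels were above all untagged ones at both regions.

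In replicate 1 the scaled count was 3.70-fold higher in gSOC1-GFP at the farther PHYA region (95% exact counting interval 1.97 to 7.67) and 3.33-fold higher at the nearer one (interval 1.65 to 7.59). In replicate 2 neither had an untagged read, and the intervals began at 2.0-fold at the farther region and 2.08-fold at the nearer one. In replicate 3 the farther region again had no untagged read, and its interval began at 2.49-fold. The nearer one was 4.56-fold higher there (interval 1.16 to 39.3). The mean log2 enrichments of 3.91 ± 1.84 and 2.93 ± 1.93 (SD, n = 3 pairs) rest in part on those empty untagged libraries. At a prior count of 10 they were 1.76 and 1.47, and the nearer region had 1.82 without replicate 2. The remaining PHYA region, in the 3' UTR, held 5, 1 and 3 reads in gSOC1-GFP, against 2, 0 and 0 in untagged gSOC1 and passed the FDR in no replicate.

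PHYB (AT2G18790), the main red light receptor of light-grown plants, had 3 listed regions and none that passed the FDR in any replicate. The region 250 bp upstream held 38, 9 and 19 reads in gSOC1-GFP, against 58, 7 and 5 in untagged gSOC1, and its log2 enrichment of -0.98 ± 0.96 (SD, n = 3 pairs) was the lowest of the 23 regions. The region 1623 bp upstream, which lay 139 bp upstream of AT2G18780, held 184, 13 and 12 reads in gSOC1-GFP, against 152, 2 and 6 in untagged gSOC1. In replicate 1 both its libraries were high, and 99.2% of all listed regions had fewer reads in that untagged library. The region 170 bp downstream held 6, 4 and 4 reads in gSOC1-GFP, against 2, 0 and 0 in untagged gSOC1. The levels upstream of PHYB thus overlapped between the groups, whereas those upstream of PHYA did not.

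**Figure D2:**
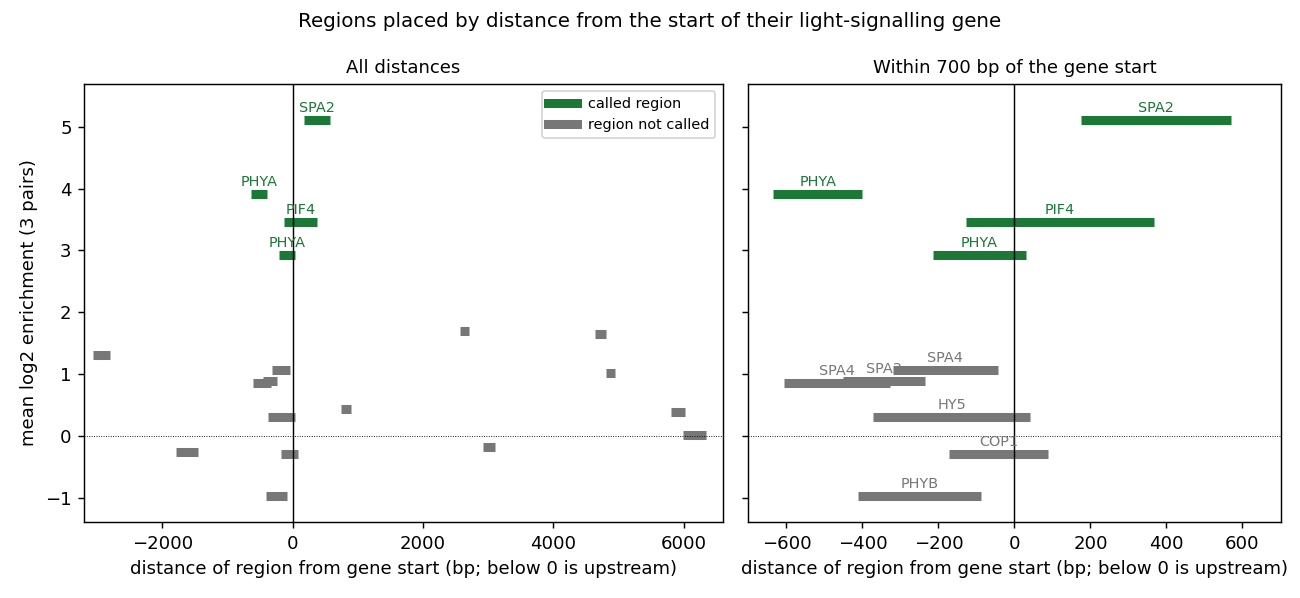
Each bar is a listed region of the light-signalling genes, drawn to its length on a horizontal axis of distance from the annotated gene start in bp, with the mean log2 enrichment over 3 pairs on the vertical axis. Regions whose gene start could not be derived from the table, such as those of PIF5 and SPA1, are left out. Green bars are the 4 called regions, which lie between 2.93 and 5.11, and grey bars the regions not called.

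SPA4 (AT1G53090) and SPA3 (AT3G15354), close relatives of each other in the SPA family, had upstream regions that passed the FDR in replicate 1 alone. The SPA4 region 468 bp upstream, rank 734, held 51, 26 and 19 reads in gSOC1-GFP, against 12, 4 and 3 in untagged gSOC1. Its log2 enrichments of 0.87, 0.89 and 0.78 were nearly equal in the 3 pairs. The authors' FDR there was 0.00173, 0.108 and 0.218 in replicates 1, 2 and 3, of which replicate 1 was the deepest. Whether depth set these FDR values was not tested. This SPA4 region was the best-ranked region of the 10 genes that was not called. The called region nearest to the threshold, 92 bp upstream of PHYA, had an FDR of 3.11e-07, 0.000459 and 0.0118.

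The second upstream region of SPA4, 182 bp from the gene, held 42, 9 and 17 reads in gSOC1-GFP, against 5, 2 and 2 in untagged gSOC1, with a log2 enrichment of 1.07 ± 0.68 (SD, n = 3 pairs). Its scaled levels did not overlap between the groups. Both upstream regions of SPA4 also lay within 1 kb downstream of AT1G53080. A region in a coding exon of SPA4 held 2, 1 and 9 tagged reads and no untagged read, too few for a fold. The SPA3 region 343 bp upstream held 39, 11 and 10 reads in gSOC1-GFP, against 5, 1 and 4 in untagged gSOC1, and was also 412 bp upstream of AT3G15359. Its log2 enrichments were 1.61, 1.48 and -0.44, so pair 3 went against the other pairs.

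SPA1 (AT2G46340), the SPA gene with the largest known role in short-day flowering, had listed regions only on its downstream side, at 131 bp and 815 bp. They held 11, 7 and 6 reads in gSOC1-GFP, against 5, 4 and 1 in untagged gSOC1, and 15, 4 and 4 reads in gSOC1-GFP, against 4, 1 and 4 in untagged gSOC1. Mean log2 enrichments were -0.10 ± 0.75 and -0.25 ± 1.15 (SD, n = 3 pairs). The scaled levels of both groups overlapped at both regions.

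COP1 (AT2G32950), the ubiquitin ligase of the complex, had a region 42 bp upstream with 18, 12 and 12 reads in gSOC1-GFP, against 16, 4 and 3 in untagged gSOC1. Its log2 enrichment was -0.30 ± 0.55 (SD, n = 3 pairs). That region also lay 414 bp upstream of AGO6. A region 316 bp downstream of COP1 held 12, 2 and 8 reads in gSOC1-GFP, against 7, 2 and 0 in untagged gSOC1. At both, the groups overlapped.

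HY5 (AT5G11260), the bZIP transcription factor that COP1 directs to degradation, had a region 165 bp upstream with 34, 27 and 27 reads in gSOC1-GFP, against 16, 5 and 6 in untagged gSOC1. This raw excess shrank on scaling, because the tagged libraries were deeper. Levels were then 62.6, 142 and 95.0 RPM in gSOC1-GFP against 65.9, 89.6 and 74.1 RPM in untagged gSOC1. The log2 enrichment was 0.30 ± 0.35 (SD, n = 3 pairs), close to the median of 0.31 over all listed regions. This upstream region also lay 127 bp downstream of OCP3. A region in a coding exon of HY5 had a log2 enrichment of 0.43 ± 0.69 (SD, n = 3 pairs).

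**Figure D3:**
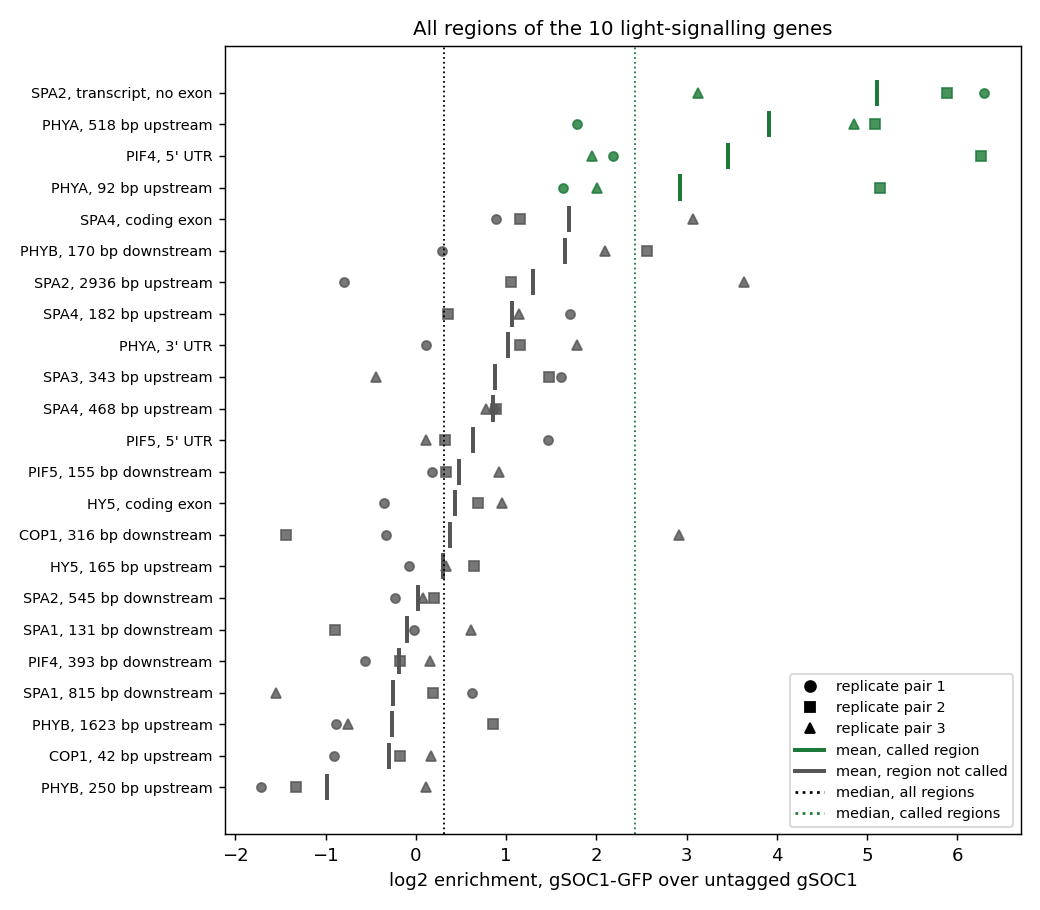
Log2 enrichment of gSOC1-GFP over untagged gSOC1 is shown on the horizontal axis for each of the 23 regions, ordered by mean, with a symbol for each of the 3 replicate pairs and a bar for the mean. Dotted lines mark the median of all listed regions, 0.31, and of called regions, 2.43. All 3 pairs of each called region lie above 1.6, and 6 other regions have a mean below 0.

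Across the 23 regions, 10 lay upstream, 6 over a gene and 7 downstream. At 19 of the 23 another gene was assigned as well, and not every such gene is named here. The median log2 enrichment was 0.63, beside 0.31 over all listed regions, and 17 of the 23 had a mean above 0, beside 67.6% of all listed regions. Scaled tagged levels were all above the untagged ones at 8 of the 23, the 4 called regions included, beside 8.48% of all listed regions. The 19 regions not called had a median log2 enrichment of 0.43, with means from -0.98 to 1.70.

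By mean log2 enrichment SPA2 came first of the called regions, followed by the farther PHYA region, PIF4 and the nearer PHYA region, and the steps between neighbours in that order were smaller than their SDs. The place of the farther PHYA region before PIF4 turned with the prior count, which sets the value of a pair with no untagged read. At a prior count of 10 the means were 3.79 at SPA2, 2.13 at PIF4, 1.76 at the farther PHYA region and 1.47 at the nearer one. Per 100 bp of region, the tagged level at SPA2 was 248, 333 and 145 RPM in replicates 1, 2 and 3. The PIF4 region had 66.9, 65.7 and 60.4 RPM per 100 bp, the farther PHYA region 71.9, 60.8 and 51.4, and the nearer one 50.3, 60.0 and 46.0. On this scale SPA2 was above the other called regions in every tagged library, and the ranges of PIF4 and the farther PHYA region overlapped.

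The quasi-likelihood test of edgeR, run over all listed regions with Benjamini-Hochberg adjustment and no replicate block, called 0 of the 23 regions. It called 0% of the whole table, with 762 of the 24032 regions at an unadjusted p under 0.05, a share that is itself under 0.05. With the replicate number as a block it called 0.379% of the table and 1 of the 23 regions, that of SPA2 (log2 fold change 5.19, adjusted p = 0.000259, higher in gSOC1-GFP in 3 of 3 pairs). Over the 17 alternative fits the adjusted p at SPA2 ran between 1.02e-09 and 1, and 10 of them passed. DESeq2, which called 1.61% of the regions to which it gave an adjusted p, also called the SPA2 region alone among the 23. Several of the 23 had no adjusted p there and could not be called, such as the upstream region of SPA3 and the nearer upstream region of SPA4. With the block, the adjusted p was 0.0671 and 0.277 at the farther and nearer PHYA regions and 0.0818 at PIF4. Of the 17 alternative fits, 4 passed at the farther PHYA region, 1 at the nearer one and 2 at PIF4. The fit that passed at the nearer PHYA region used the replicate block and a filter on low counts. A region can pass that filter through the gSOC1-GFP libraries alone.

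Other genes of light signalling were examined in a list of 41, of which 36 had a listed region. The list is not a full set of such genes, and genes outside it were not counted. A called region was present at 1 of the 36, beside 1.75% of all genes with a listed region. That gene was RUP2 (AT5G23730), which encodes a WD40-repeat protein that returns the UV-B receptor UVR8 to its inactive form. The RUP2 region, 205 bp upstream on chromosome 5 from 8004901 to 8005157, held 48, 21 and 31 reads in gSOC1-GFP, against 7, 1 and 3 in untagged gSOC1. Its log2 enrichment was 1.77 ± 0.52 (SD, n = 3 pairs), below the means of the 4 called regions described above. The authors' FDR of 5.44e-05, 0.0269 and 0.0334 placed it near the threshold, and no gene of this list was called at an FDR of 0.01. The 83 regions of these genes had a median log2 enrichment of 0.31, the same as all listed regions.

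Regions upstream of 3 further genes of that list passed the FDR in 2 of the 3 replicates. With RUP2, 4 of the 36 genes passed in at least 2 replicates, beside 4.08% of all genes with a listed region and 2.62% of all regions. At UVR8 itself, the region 464 bp upstream held 34, 16 and 17 reads in gSOC1-GFP, against 1, 0 and 3 in untagged gSOC1. At PIL1, a PIF-like gene induced by shade, the region 1255 bp upstream held 43, 28 and 36 reads in gSOC1-GFP, against 14, 1 and 8 in untagged gSOC1. At BBX20, a B-box gene, the region 676 bp upstream held 44, 10 and 37 reads in gSOC1-GFP, against 11, 1 and 4 in untagged gSOC1. At least 1 replicate passed at 15 of the 36 genes and at 6 of the 10 genes above, beside 18.9% of all genes with a listed region and 12.4% of all regions.

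**Figure D4:**
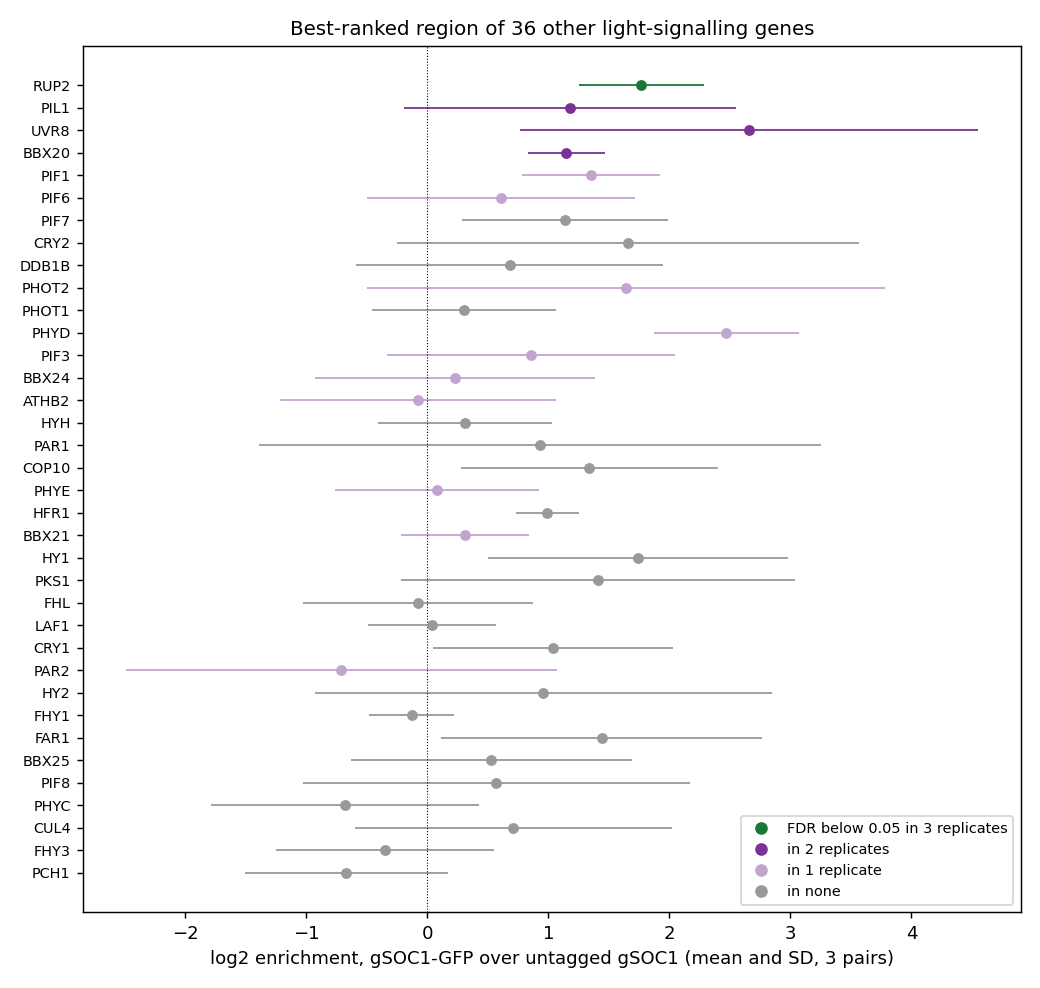
The best-ranked region of each of 36 other light-signalling genes is shown in the authors' rank order, with the mean log2 enrichment and SD over 3 pairs on the horizontal axis. Colour gives the number of replicates past the authors' FDR of 0.05. RUP2, at 1.77, is the single gene with 3.

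The other phytochrome genes and PIF genes had no called region. PHYD, a receptor close to PHYB, had a region 650 bp upstream with 13, 2 and 8 tagged reads and no untagged read. PHYE had 30, 11 and 7 reads in gSOC1-GFP, against 6, 4 and 3 in untagged gSOC1 at a region 9 bp upstream. PIF1, a repressor of seed germination, had 43, 8 and 22 reads in gSOC1-GFP, against 4, 1 and 3 in untagged gSOC1 at 54 bp upstream, a log2 enrichment of 1.35 ± 0.57 (SD, n = 3 pairs). PIF3 had 20, 7 and 11 reads in gSOC1-GFP, against 2, 3 and 1 in untagged gSOC1 at a region within its transcript but in no exon. Each of these regions passed the FDR in replicate 1 alone, the deepest replicate. The region of PIF6, 500 bp upstream, passed in replicate 3 alone, with 85, 23 and 36 reads in gSOC1-GFP, against 56, 4 and 3 in untagged gSOC1. The best-ranked regions of PHYC, PIF7 and PIF8 passed in no replicate, with log2 enrichments of -0.68 ± 1.11, 1.14 ± 0.85 and 0.57 ± 1.60 (SD, n = 3 pairs).

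The called regions outside these genes that were most alike were found by Euclidean distance between log2 scaled levels over the 6 libraries. For SPA2 they were regions assigned to AT1G63950, AT5G57710 and ATC, at distances of 1.28, 1.49 and 1.74, where the median distance to called regions was 4.94. For PIF4 the closest was a region with no gene in the windows (0.548), followed by regions of TZP (1.05) and NAC3 (1.48). For the farther PHYA region they were regions of AT1G44010 (0.917), AT5G40540 (1.47) and AT5G13340 (2.10), and for the nearer one regions of IBR3 (0.333), QS (0.549) and BON2 (0.794).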

How the data were processed

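The authors deposited 1 table of read counts per region for 6 libraries, not normalized, per the file headers. The authors' p-value columns were Benjamini-Hochberg FDR values for each replicate, which the authors combined into a rank product on a log2 scale and a rank score, per the file headers and the deposited column text. Per the submitters' processing notes, coordinates are on TAIR10. No aligner or region caller is named in the sources used here. Positions are as deposited, and ends were computed from start and length. Gene starts were derived from the deposited distances.

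Counts were scaled with TMM effective library sizes, and log2 enrichment used a prior count of 1. The TMM factors of replicates 1, 2 and 3 were 0.82, 1.04 and 1.08 in gSOC1-GFP and 0.613, 1.36 and 1.31 in untagged gSOC1. All 24032 regions were fitted with edgeR 4.0.16 in R 4.3.3, with DESeq2 1.42.0 as an alternative. Deviations of same-numbered libraries correlated at 0.498, 0.123 and 0.139, each above the bound of 0.1, so the replicate numbers in the titles were taken to pair the libraries. Support for pairing in replicates 2 and 3 is weak, since the unmatched pair of tagged replicate 3 and untagged replicate 2 reached 0.131. Deviations were from the mean of each group, so the agreement in replicate 1 alone raises the correlations among replicates 2 and 3. The bound thus cannot show pairing in those replicates. Symbols came from the RefSeq table (TAIR10.1), which held all 10 gene names and lacked 2 of the names in the list of other light genes, PIF8 and PCH1. All 10 genes, their regions, genes with a called region and the 3 most alike called regions were named by rule. PIL1, UVR8, BBX20 and the other phytochrome and PIF genes were named after their values were seen. The genes and lists were chosen with earlier results of these data known. Sequences were not used here.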

Additional observations from a re-analysis of the deposited data

How the results depend on the processing

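PHYA, PIF4 and SPA2 were the genes with a called region at an FDR of 0.01 and with 1 kb windows. With overlap alone 2 of these 3 genes remained. The same 3 genes were found at an FDR of 0.1, with at least 2 replicates and without each replicate. A called region passes in those settings by definition, so they could only have added genes. The list of other light genes had 0 genes at an FDR of 0.01 and with overlap alone, 4 with at least 2 replicates, and 1 to 3 without each replicate (3 without replicate 3). Of the 23 regions, edgeR called 0, against 1 with the replicate block (91 of all 24032 regions) and 1 with library totals (18 of all regions). A filter on low counts kept 14 of the 23 and 8130 of all regions. With it edgeR called 1 of the 23, beside 56 of the 8130. With the filter and the replicate block it called 4, beside 230 of the 8130. A region can pass this filter through the gSOC1-GFP libraries alone, so those 4 are no added support. DESeq2 called 1, beside 94 of the 5822 regions with an adjusted p. With libraries or replicates left out the count was 0 to 3, beside 0 to 86 of all regions. It was 2 without untagged replicate 1 (51 of all regions) and 3 without replicate 1 (86 of all regions). With the replicate block and a replicate left out it was 1 to 2, beside 69 to 119 of all regions. The cause of these changes was not tested. The median log2 enrichment of the 23 regions ranged from 0.31 (prior count 10) to 0.89 (prior count 0.25), and that of all listed regions was 0.06 and 0.50 there. The analysis of CArG boxes was not run, since sequences were not used here. The low untagged depth limits the fold at regions with 0 to 5 untagged reads.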

Other observations

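The table listed 9 more regions that named one of the 10 genes as a neighbour but lay outside the windows, and none of them was called. The best-ranked was 2180 bp downstream of SPA1, with 20, 7 and 12 reads in gSOC1-GFP, against 4, 0 and 2 in untagged gSOC1, a log2 enrichment of 1.64 ± 1.41 (SD, n = 3 pairs). The region 3006 bp upstream of PIF4 missed the window by little and held 16, 3 and 8 reads in gSOC1-GFP, against 4, 3 and 2 in untagged gSOC1.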
